A study of Homo sapiens with 8 samples.

Results

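The cytosolic ribosomal protein genes encode the proteins of the large (RPL) and small (RPS) subunits of the ribosome outside mitochondria. Members were the probes whose single gene symbol is RPL or RPS with a number and at most a letter A or X, or RPLP0, RPLP1, RPLP2 or RPSA. Pseudogenes and paralogues with an L suffix were left out. The rule found 114 of 48803 probes, for 68 genes, 43 of the large and 25 of the small subunit. RPSA, RPLP0 and RPS27A were not analysed here. RNA had been measured on 8 Illumina HumanHT-12 v3 arrays in HCT116, an established human colon carcinoma line, in 4 groups of 2 arrays. One group received a non-targeting control siRNA and no drug, and another the control siRNA and then 0.5 µM doxorubicin for 24 h, which poisons topoisomerase II and so breaks DNA. A further group received an siRNA directed at TAF3, the part of transcription factor TFIID that binds histone H3 trimethylated on lysine 4, and no drug, and the last TAF3 siRNA and the same doxorubicin treatment. All cells were thus transfected with an siRNA, and the drug was given from 48 h after transfection. For labelling, oligo(dT) primed 200 ng of total RNA. The labels do not say whether the 2 arrays of a group come from separate cultures, and the p-values measure no more than how far these arrays lie apart, part or all of which may be technical.

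Ribosomal proteins assemble with ribosomal RNA into both subunits, and their mRNAs are among the most abundant of growing cells. Most of these mRNAs begin with a run of pyrimidines, the 5' terminal oligopyrimidine (TOP) tract, through which their translation is coupled to TOR signalling. RPL5 and RPL11, free of the ribosome but bound to 5S ribosomal RNA, can bind MDM2, the ubiquitin ligase of p53, and hold back p53 breakdown. Human ribosomal protein genes have many processed pseudogenes of near-identical sequence, and which probes can also read such copies was not examined.

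Windows of 30 bases around the start of transcription (15 bases before it and 15 from it, RefSeq, GRCh38.p14) were available for 58 of the 68 genes, as 69 windows. They are shown for each gene that is called in the results below and has exactly 1 window, 15 of 20 such genes, so that the pyrimidine tract, which the choice of members did not use, can be seen where it is long and where it is short. RPL13 and RPL34, which had several windows, and RPL5, RPL7 and RPL23A are not shown. Capitals mark the longest unbroken run of C and T within the window. It spans 8 or more bases in 13 of the 15 windows, with 5 bases in RPL27 and 6 bases in RPL12. The marked runs of RPL27, RPL4 and RPL9 end at the last base of the window, so their full lengths are not shown. The first 7 genes, RPL4 to RPS14, were lower after doxorubicin with control siRNA and higher with TAF3 siRNA under doxorubicin. RPL9, RPL12, RPL28 and RPS18 were called only in the latter comparison, and RPL29, RPL36A, RPS7 and RPS21 were called lower after doxorubicin. The windows lie at chr15:66504841-66504870 (minus) for RPL4, chr6:35468386-35468415 (plus) for RPL10A, chr19:49487593-49487622 (plus) for RPL13A, chr13:27251543-27251572 (plus) for RPL21, chr1:6199581-6199610 (minus) for RPL22, chr17:42998404-42998433 (plus) for RPL27, chr5:150449725-150449754 (minus) for RPS14, chr4:39458908-39458937 (minus) for RPL9, chr9:127451392-127451421 (minus) for RPL12, chr19:55385917-55385946 (plus) for RPL28, chr6:33272060-33272089 (plus) for RPS18, chr3:51995881-51995910 (minus) for RPL29, chrX:101390996-101391025 (plus) for RPL36A, chr2:3575245-3575274 (plus) for RPS7 and chr20:62387088-62387117 (plus) for RPS21, with the strand in parentheses.
RPL4: tacagcgggagtggtaagcaCTTCCTTTTC
RPL10A: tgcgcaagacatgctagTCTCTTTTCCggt
RPL13A: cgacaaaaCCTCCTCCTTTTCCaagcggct
RPL21: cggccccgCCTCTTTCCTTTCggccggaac
RPL22: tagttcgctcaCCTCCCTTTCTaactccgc
RPL27: ccggggtgaaaggttagcggaagtgTCCTT
RPS14: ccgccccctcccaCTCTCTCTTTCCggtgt
RPL9: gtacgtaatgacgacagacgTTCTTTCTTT
RPL12: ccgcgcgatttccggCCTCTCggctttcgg
RPL28: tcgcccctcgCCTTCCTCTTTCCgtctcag
RPS18: cgcgtcacttccgCTCTCTCTTCCacagga
RPL29: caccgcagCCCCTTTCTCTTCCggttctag
RPL36A: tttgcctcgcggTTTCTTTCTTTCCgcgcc
RPS7: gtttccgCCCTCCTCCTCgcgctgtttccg
RPS21: ggtgactagctgCTTCCTTTCTCTCTCgcg

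The longest run was 11 bases in the median member window and 4 in the median of all 35116 windows of that length in the table. Runs of at least 8 bases stood in 73.9% of member windows and in 13.7% of all windows. The motif CTTTC and its longer forms with 1 or 2 more T between the C's, picked after the member sequences had been looked at, were searched on both strands. One or more of these forms stood on the sense strand in 41 of 69 member windows (59.4%) and in 5.83% of all windows. On the antisense strand they stood in 1 member window (1.45%) and in 4.08% of all windows. Apart, the shortest form stood in 31 member windows on the sense strand, the middle form in 9 and the longest in 3, against 4.41%, 1.22% and 0.322% of all windows, and a window can hold more than one. A match is a description of these letters and not a measured TOP tract.

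Of the 68 genes, 67 had a probe detected on at least 2 arrays and were measured, 42 of the large and 25 of the small subunit, with 111 probes. RPL10, a late-joining large subunit protein, had 2 probes that were detected on 0 arrays, with mean signals of 63.6 and 68.6, and is not described further. The brightest kept probe stands for each gene, and for all 67 it was detected on 8 arrays. Signals are the deposited linear intensities, and background thresholds ran from 81.3 to 87.3 on the 8 arrays. A probe's brightness also depends on its sequence, so signals are compared between arrays and not between genes. Log2 changes below are differences of group means after background correction and quantile normalization, written with the standard error of a limma fit to all 8 arrays (n = 2 per group). Counts of genes or features whose arrays lie apart also use the normalized values. Signals printed for single genes are not normalized, and their arrays can overlap where the normalized values do not. A gene is called where its limma adjusted p (Benjamini-Hochberg over 16348 features) is under 0.05. In bulk RNA, fewer cells of a kind and less RNA per cell cannot be told apart.

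The targeted transcript could not serve as a check, since of 2 TAF3 probes one was below background on all 8 arrays and the other passed it on just 2, those of control siRNA with doxorubicin (89.3 and 101.0). The effects below are therefore those of the TAF3 siRNA treatment. CDKN1A, a p53 target that encodes p21, rose with the drug under either siRNA (2.28 ± 0.21 and 2.23 ± 0.21). Of 7 epithelial markers 6 were kept, led by KRT19 (mean signal 17807) and EPCAM (17616), and VIL1 was not. Of the markers of leukocytes, endothelium, fibroblasts and red cells, CD14, PECAM1, VWF, COL1A1 and PDGFRB were kept, at mean signals between 88.0 and 227, and the others were not kept. Of these 5, CD14 (0.61 ± 0.18) and PDGFRB (0.85 ± 0.15) rose with doxorubicin in control cells, and PDGFRB was lower with TAF3 siRNA under doxorubicin (-0.66 ± 0.15), each within 151 signal units on every array, and their part in the results was not tested.

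As a share of the summed signal, the ribosomal protein probes were lower after doxorubicin with control siRNA and higher after doxorubicin with TAF3 siRNA. Their 114 probes held 6.48% and 6.49% of the summed deposited signal on the untreated control siRNA arrays, 4.995% and 5.50% after doxorubicin, 5.86% and 5.56% with TAF3 siRNA alone and 6.14% and 6.47% with TAF3 siRNA and doxorubicin. In each of these 4 comparisons both arrays of one group lay on the same side of both arrays of the other. The mean difference with doxorubicin was -1.24 percentage points with control siRNA and 0.59 points with TAF3 siRNA. TAF3 siRNA alone differed from control siRNA by -0.77 points, and under doxorubicin by 1.06 points. With 2 arrays against 2 an exact permutation test cannot give a two-sided p below 0.333, so none of these shares was tested. After background correction the shares were 6.45% and 6.46%, 4.97% and 5.47%, 5.83% and 5.53%, and 6.10% and 6.43% in the same order of groups.

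**Figure D1:**
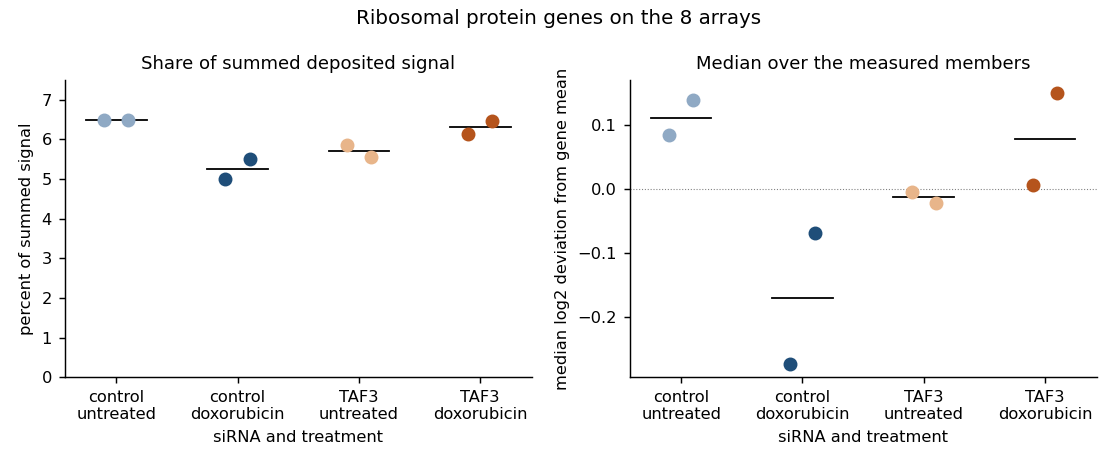
Ribosomal protein genes on each array. Left, percent of the summed deposited signal held by the 114 member probes, and right, median over the 67 measured genes of the log2 deviation from each gene's mean over 8 arrays; points are arrays, lines are means of 2 arrays. The control siRNA doxorubicin arrays are lowest in both panels, at 4.995% and 5.50% on the left.

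Doxorubicin with control siRNA lowered 13 ribosomal protein mRNAs and raised 1. RPS7 and RPL36A changed most, followed by RPL21, RPS21 and RPL29, and RPL34 was the single member that rose. The 14 calls are 20.9% of the 67 genes, against 17.1% of all 16348 features, so the share called lies near the background. By direction, 13 of 67 fell against 8% of all features, and 1 rose against 9.07%. The median log2 change of the members was -0.29 and that of all features -0.02. Values below 0 were found for 53 of 67 genes, and both drug arrays lay below both untreated arrays for 41 and above for 6, against 33.8% and 29.8% of all features. The large subunit gave 10 of the 13 falls and the rise (of 42 genes, median -0.42), and the small subunit 3 falls (of 25 genes, median -0.19). The difference between the subunits was not tested.

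**Figure D2:**
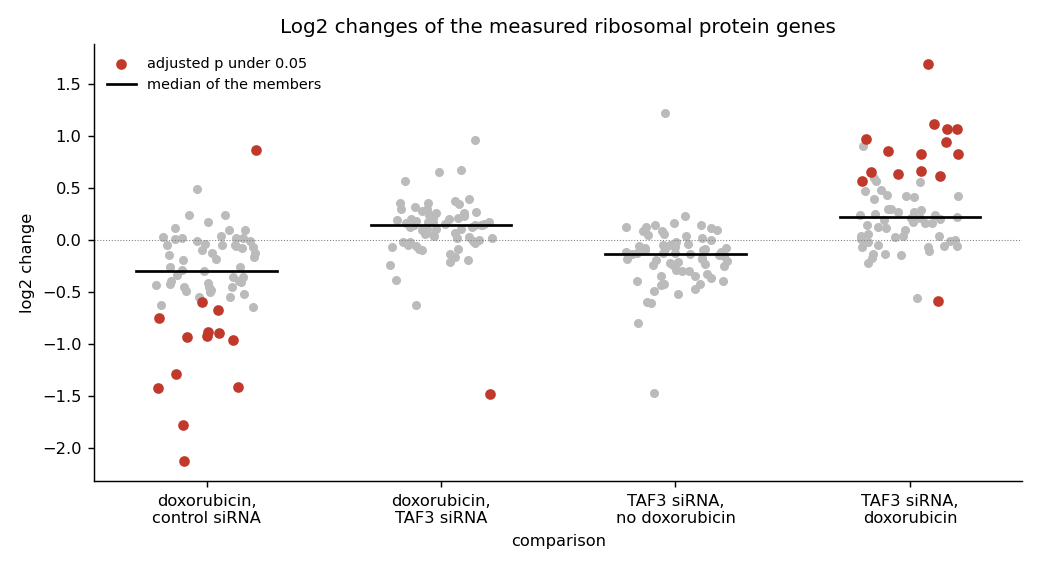
Log2 changes of the 67 measured ribosomal protein genes in each of 4 comparisons. Each point is 1 gene, red points passed the limma adjusted p of 0.05 over all features, and black lines are medians (-0.29, 0.14, -0.13 and 0.23 from left to right).

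The members that link ribosome assembly to p53 were not of one kind. RPS7, a small subunit protein that can bind MDM2, gave signals of 1304 and 1360.3 on the untreated control arrays, 258 and 422 after doxorubicin, 814 and 1147 with TAF3 siRNA alone and 250.2 and 415 with both. Its 2 drug groups lay below its 2 untreated groups with no overlap. With control siRNA it fell by 2.13 ± 0.30 (limma adjusted p = 0.00337), and with TAF3 siRNA by 1.48 ± 0.30 (limma adjusted p = 0.0296). A second RPS7 probe gave -1.85 ± 0.33 and -1.48 ± 0.33, both called. RPS7 was the only member called in the doxorubicin comparison with TAF3 siRNA.

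RPL5, one of the proteins of the 5S ribonucleoprotein particle, gave 13992 and 15017 in untreated control cells, 8427 and 8849 after doxorubicin, 13528 and 13405 with TAF3 siRNA and 11115 and 14244 with both. It fell by 0.68 ± 0.16 with doxorubicin in control cells (limma adjusted p = 0.0235), and its change with TAF3 siRNA was 0.04 ± 0.16 with overlapping arrays. RPL11, the other protein of that particle, lay between 21677 and 28371 on the 8 arrays, and its changes of -0.06 ± 0.14 and 0.13 ± 0.14 did not pass. The partners of one particle thus gave different calls, and the difference between them was not tested. RPL23, which also binds MDM2, gave -0.50 ± 0.27 and 0.14 ± 0.27. RPL26, which binds the p53 mRNA, gave -0.49 ± 0.19 with control siRNA and 0.32 ± 0.19 with TAF3 siRNA, and neither passed. On the normalized values both RPL26 drug arrays were lower with control siRNA and both were higher with TAF3 siRNA. RPS3, which also has a role in DNA repair, gave -0.43 ± 0.16 and -0.08 ± 0.16, and RPS27, whose paralogue RPS27L is a p53 target, gave 0.10 ± 0.16 and 0.30 ± 0.16, none of them called. Of 6 measured genes of a list of 5S particle factors and MDM2, MDM2 itself rose with the drug under either siRNA (0.98 ± 0.18 and 1.18 ± 0.18), and RPF2, which brings the particle into the precursor ribosome, fell by 0.87 ± 0.20 with control siRNA.

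Among proteins at the working parts of the large subunit, RPL4, which lines the tunnel through which the new chain leaves, had signals of 8728 and 10747 on untreated control arrays, 4806 and 5493 after doxorubicin, 9998 and 8706 with TAF3 siRNA and 10301 and 9654 with both. Both control siRNA doxorubicin arrays lay below all 6 others. RPL4 fell by 0.89 ± 0.18 (limma adjusted p = 0.0123). RPL10A, a protein of the L1 stalk, had 23764 and 27937 in untreated control cells and 12948 and 13749 after doxorubicin and fell by 0.89 ± 0.18, while its arrays overlapped with TAF3 siRNA (21526 and 25071 untreated, 16899 and 22855 with the drug). RPL3, close to the peptidyl transferase centre, gave -0.29 ± 0.14 on its brightest probe and was not called. RPLP1 and RPLP2, the acidic stalk proteins that draw in elongation factors, gave 0.04 ± 0.14 and 0.02 ± 0.16, and RPL12 at the base of that stalk gave -0.42 ± 0.21.

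RPL13A, which can leave the ribosome and hold back the translation of inflammatory mRNAs, gave 5202 and 5212 untreated with control siRNA, 2526 and 2972 after doxorubicin, 4021 and 4002 with TAF3 siRNA and 5139.6 and 5911 with both agents. The control siRNA doxorubicin arrays were lowest, the untreated TAF3 siRNA arrays were next, and no 2 groups overlapped other than the untreated controls and the cells given both. RPL13A fell by 0.93 ± 0.17 with control siRNA (limma adjusted p = 0.00808), and its change of 0.66 ± 0.17 with TAF3 siRNA did not pass (limma adjusted p = 0.0605). RPL22, a protein that mouse ribosomes can do without, gave 5974 and 6528, 3002 and 3377, 5179 and 5654 and 4593 and 6089 in the same order of groups and fell by 0.96 ± 0.17. RPL21 gave 3078 and 4646, 1184 and 1770.4, 2032 and 2729.5 and 2198 and 3170.5 in that order and fell by 1.42 ± 0.27. In both genes the control siRNA doxorubicin arrays lay below all the others. RPL7 fell by 0.75 ± 0.16 and RPL27 by 0.59 ± 0.14. RPL36A, whose paralogue RPL36AL lies outside the rule, fell by 1.78 ± 0.33 from 284 and 349 to 92.4 and 98.7, which is close to the background thresholds, so the size of this fall is uncertain.

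RPL34 went the other way, with 1328 and 1202 on untreated control arrays, 2179 and 2746 after doxorubicin, 1234 and 1773 with TAF3 siRNA alone and 2158 and 2051 with both. It rose by 0.87 ± 0.18 with control siRNA (limma adjusted p = 0.0131), and its 0.67 ± 0.18 with TAF3 siRNA was not called, although both drug arrays were higher there too. Its dimmer probe gave -0.25 ± 0.44 with control siRNA, so the rise rests on 1 of 2 probes.

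In the small subunit, RPS14, whose loss on one chromosome underlies the anaemia of the 5q- syndrome, gave 23818 and 22844 on untreated control arrays, 10347 and 13559.7 after doxorubicin, 17097 and 21491 with TAF3 siRNA and 18186 and 23402 with both. The drug arrays with control siRNA lay below all the others. RPS14 fell by 0.92 ± 0.18 on the probe that stands for it, and the second probe gave -1.03 ± 0.17. RPS21 had 4401 and 5120.4 in untreated control cells, 1612 and 2049 after doxorubicin, 3214 and 3499 with TAF3 siRNA and 2312 and 2848 with both, and fell by 1.41 ± 0.19, with the smallest adjusted p of the members (limma adjusted p = 0.00302). RPS19, the gene most often mutated in Diamond-Blackfan anaemia, lay between 26594 and 29952 on the 8 arrays and gave 0.25 ± 0.15 and 0.05 ± 0.15 in the comparisons of doxorubicin, neither called. RPS6, the target of the S6 kinases, gave -0.40 ± 0.17 and 0.20 ± 0.17, and RPS4X, encoded on the X chromosome, gave 0.10 ± 0.17 and 0.28 ± 0.17. None of these values passed.

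**Figure D3:**
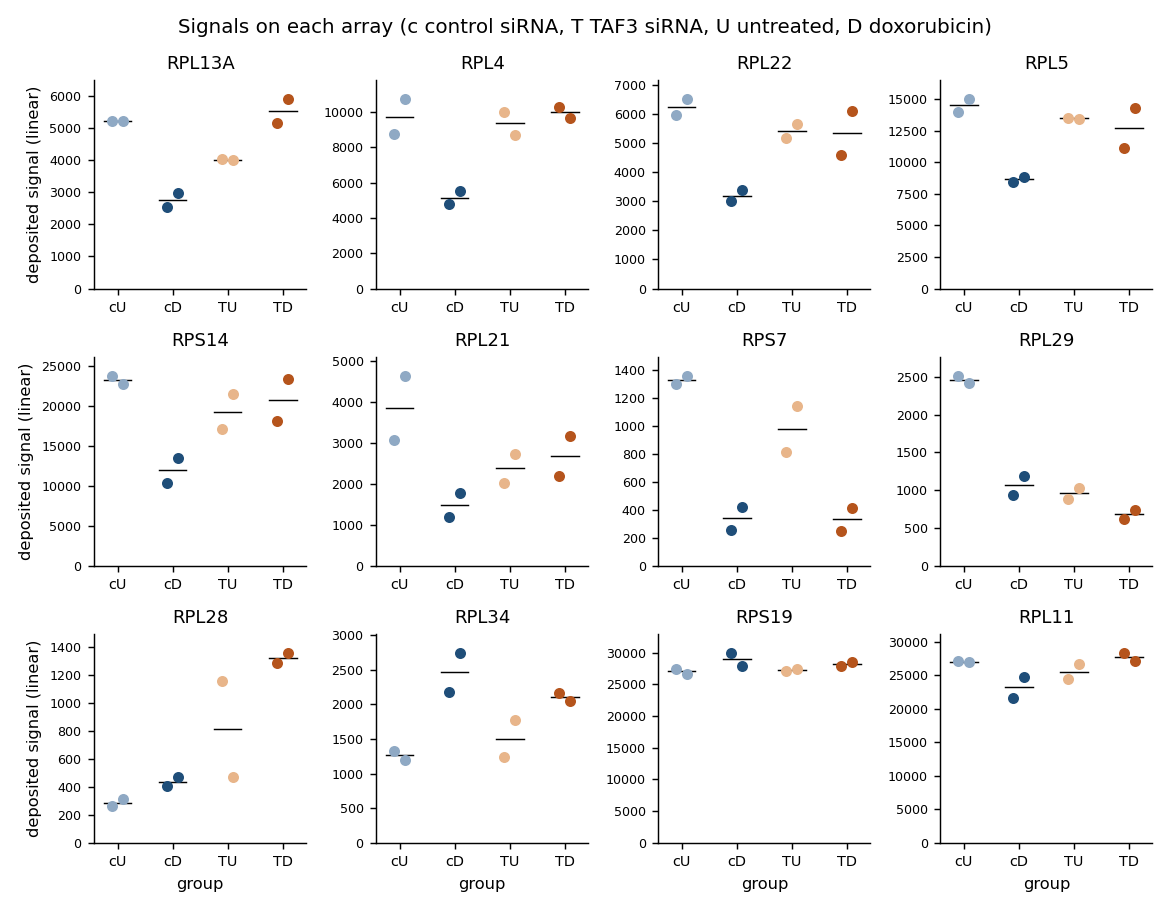
Deposited linear signals of 12 ribosomal protein genes on each of 8 arrays, with group means as lines (cU control siRNA untreated, cD control siRNA with doxorubicin, TU TAF3 siRNA untreated, TD TAF3 siRNA with doxorubicin). RPL13A, RPL4, RPL22, RPL5, RPS14 and RPL21 are lowest in cD, RPS7 is low in both drug groups, RPL29 is high in cU alone, RPL28 is highest in TD, and RPS19 and RPL11 span narrow ranges.

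With TAF3 siRNA, doxorubicin lowered 1 member, RPS7, and raised 0 of 67 by the limma test, while 5 of 67 genes and 3427 of 16348 features had an unadjusted p under 0.05. The 1 call is 1.49% of the members against 4.66% of all features (2.08% higher and 2.58% lower). The median log2 change was 0.14, against 0.01 for all features, with 49 of 67 genes above 0. Both drug arrays lay above both untreated arrays for 26 genes and below for 5, against 24.6% and 23.1% of all features. The highest values were those of RPL28 (0.96 ± 0.39), RPL34 (0.67 ± 0.18) and RPL13A (0.66 ± 0.17), and beside RPS7 the lowest were RPL36A (-0.62 ± 0.33) and RPL29 (-0.38 ± 0.19).

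The 2 responses to doxorubicin rest on different arrays, so they could be set against each other by the difference between them (response with TAF3 siRNA minus response with control siRNA). By limma 0 of 67 members passed for this difference, against 0.0367% of all features (6 of 16348, 0.0122% higher and 0.0245% lower), while 24 of 67 members and 2422 of 16348 features reached an unadjusted p under 0.05. RPL13A had the lowest limma adjusted p of the members, 0.0734. The median difference was 0.44, against 0.02 for all features, and 59 of 67 genes lay above 0. RPL21 (1.77 ± 0.38) and RPL13A (1.59 ± 0.24) had the highest differences and RPS15 (-0.37 ± 0.23) the lowest. On the normalized values, 12 of 67 genes had both drug arrays lower with control siRNA and both higher with TAF3 siRNA. This pattern was found in 3.21% of all features. The 12 genes were RPL4, RPL7, RPL13A, RPL17, RPL26, RPL31, RPS6, RPS9, RPS10, RPS18, RPS26 and RPS28, of which RPL4, RPL7 and RPL13A were called in control cells. The reverse pattern was found in RPS15 alone, against 2.32% of all features. On the deposited signals, among the large subunit genes listed, untreated and drug arrays with TAF3 siRNA overlapped for RPL4, RPL7, RPL26 and RPL31.

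**Figure D4:**
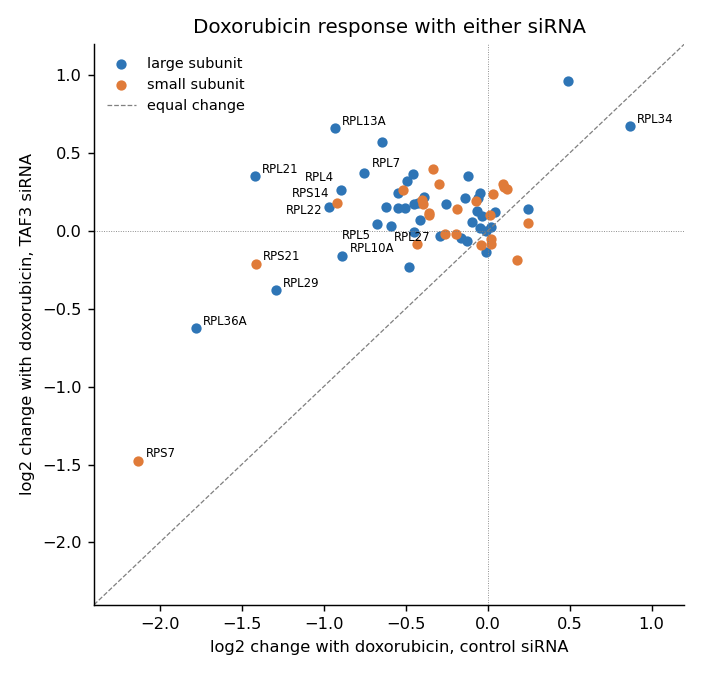
Log2 change with doxorubicin in cells with control siRNA (x axis) and with TAF3 siRNA (y axis) for the 67 measured genes, coloured by subunit, with genes called in control cells named. Of the 67 genes, 59 lie above the dashed line of equal change, RPS7 is low on both axes and RPL13A, at -0.93 and 0.66, lies in the upper left.

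TAF3 siRNA without doxorubicin gave 0 called members by limma, and 0 of all 16348 features (0%), while 10 members and 1974 features had an unadjusted p under 0.05. The members' median was -0.13, against 0.01 for all features, with 52 of 67 below 0. Both TAF3 siRNA arrays lay below both control arrays for 35 members and above for 7, against 19.6% and 21.3% of all features. RPL29, a heparin-binding large subunit protein, gave 2514 and 2412 on the untreated control arrays, 937 and 1189 after doxorubicin, 887 and 1029.8 with TAF3 siRNA alone and 624 and 734 with both. The untreated control arrays lay above all 6 others, and the arrays with both agents lay lowest. Its change with TAF3 siRNA was -1.47 ± 0.19 (limma adjusted p = 0.141), the smallest adjusted p among all features in this comparison, and its second probe gave -1.48 ± 0.23. With doxorubicin in control cells RPL29 fell by 1.29 ± 0.19 (limma adjusted p = 0.00371).

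RPL28 gave 259 and 313 untreated with control siRNA, 402 and 472 after doxorubicin, 1154 and 467 with TAF3 siRNA and 1285 and 1356 with both. The untreated TAF3 siRNA arrays differed more from each other than any other pair of this gene, and its change with TAF3 siRNA alone was 1.23 ± 0.39 (limma adjusted p = 0.316). RPL21 (-0.80 ± 0.27), RPS21 (-0.60 ± 0.19) and RPL13A (-0.47 ± 0.17) were among the lower values with both arrays apart, and RPL12 (0.23 ± 0.21) and RPL18 (0.16 ± 0.14) were the highest after RPL28.

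Under doxorubicin, 14 members were higher with TAF3 siRNA than with control siRNA and 1 was lower. RPL28, RPL13A, RPL4 and RPL13 had the largest differences. The calls are 22.4% of 67 genes, against 13.8% of all features. By direction, 14 of 67 were higher against 6.53% of all features, and 1 was lower against 7.28%. The median was 0.23, against 0.03 for all features. Both TAF3 siRNA arrays lay above both control siRNA arrays for 32 members and below for 6, against 33.1% and 29% of all features. Of the higher calls 12 were in the large subunit (median 0.26) and 2 in the small subunit (median 0.16). This comparison uses the same control siRNA doxorubicin arrays as the doxorubicin comparison in control cells, so a low value there lowers one and raises the other, and the genes called in both are not independent observations.

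RPL28 was higher by 1.70 ± 0.39 (limma adjusted p = 0.0251), on the signals given above. RPL13A was higher by 1.12 ± 0.17 (limma adjusted p = 0.00832) and RPL4 by 1.08 ± 0.18 (limma adjusted p = 0.0108). Of the other members that doxorubicin lowered in control cells, RPL21 (0.97 ± 0.27), RPL7 (0.94 ± 0.16), RPS14 (0.86 ± 0.18), RPL22 (0.83 ± 0.17), RPL10A (0.64 ± 0.18), RPL5 (0.62 ± 0.16) and RPL27 (0.57 ± 0.14) were also called higher. RPS7 (0.06 ± 0.30), RPL29 (-0.56 ± 0.19), RPS21 (0.60 ± 0.19) and RPL36A (0.91 ± 0.33) were lowered in control cells and not called here.

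RPL12, at the base of the stalk, gave 13533 and 20049.5 under doxorubicin with control siRNA and 25711 and 31955 with TAF3 siRNA, and was higher by 0.83 ± 0.21. RPS18, in the head of the small subunit, gave 13967 and 15647 and 23865 and 21521 and was higher by 0.66 ± 0.14. RPL9 was higher by 0.66 ± 0.19 (limma adjusted p = 0.0486, close to the threshold) and RPL13 by 1.07 ± 0.29 (limma adjusted p = 0.0406). RPL23A, which lies at the mouth of the tunnel, was the member that was lower (-0.59 ± 0.16), with 2319 and 2535 under control siRNA and 1661 and 1404 under TAF3 siRNA. Its untreated arrays were also lower with TAF3 siRNA (1563 and 1511 against 1999.8 and 1907), where it was not called. Members with known roles that were not called were RPL11 (0.21 ± 0.14), RPL23 (0.41 ± 0.27), RPL26 (0.29 ± 0.19), RPL3 (0.26 ± 0.14), RPS3 (0.30 ± 0.16), RPS6 (0.47 ± 0.17), RPS19 (-0.07 ± 0.15), RPS27 (-0.14 ± 0.16), RPS4X (-0.06 ± 0.17), RPLP1 (0.03 ± 0.14) and RPLP2 (-0.02 ± 0.16). RPS15 (-0.22 ± 0.16) and RPL29 were, with RPL23A, the 3 lowest values.

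The size of a member's change went with the brightness of its probe. For doxorubicin with control siRNA the 16 genes with a mean signal under 5000 had a median of -0.60 (1 higher and 7 lower by the test), the 23 genes from 5000 to 20000 had -0.45 (5 lower) and the 28 genes over 20000 had -0.11 (1 lower). For TAF3 siRNA under doxorubicin the medians were 0.56 (5 higher, 1 lower), 0.41 (7 higher) and 0.09 (2 higher). Across the 67 genes, which share arrays and are not independent, Spearman's rho between mean log2 signal and the size of the change was -0.664 and -0.539 in these comparisons. Of 30 genes with at least 2 probes detected on all arrays, the dimmest probe gave the lower value for doxorubicin with control siRNA in 22 (medians -0.49 for the dimmest and -0.27 for the brightest probes) and the higher value for TAF3 siRNA under doxorubicin in 19 (medians 0.38 and 0.21). The brightest signals of all on the arrays were 44763 to 48954. Whether bright probes report smaller changes than the RNAs underwent was not tested.

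**Figure D5:**
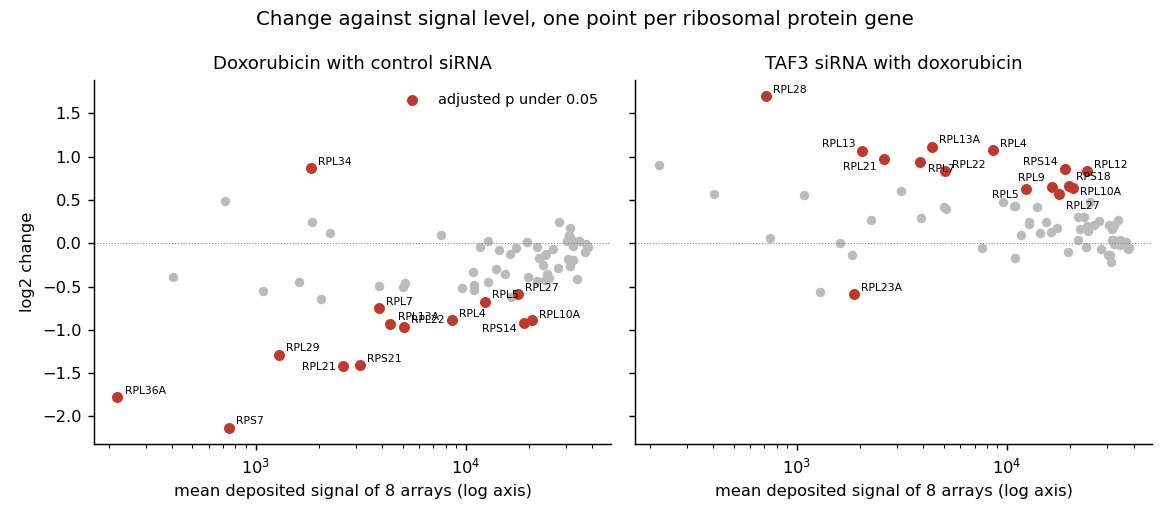
Log2 change against mean deposited signal over 8 arrays (log axis) for the 67 measured genes, for doxorubicin with control siRNA (left) and TAF3 siRNA with doxorubicin (right); red points passed the adjusted p of 0.05. Genes over 20000 have medians near 0 in both panels (-0.11 and 0.09), with medians further from 0 among dimmer probes. Single genes over 20000 run from -0.89 to 0.25 on the left and from -0.22 to 0.83 on the right.

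Probes of one gene disagreed in places. RPL13 had 2 probes of like brightness, which gave -0.65 ± 0.28 and 1.19 ± 0.31 for doxorubicin with control siRNA, the second called (limma adjusted p = 0.0307), and 1.07 ± 0.28 and -0.71 ± 0.31 for TAF3 siRNA under doxorubicin. The call of RPL13 as higher there therefore rests on the choice of probe. RPL9 had a second probe at -0.91 ± 0.18 and a dimmer one at 0.81 ± 0.17 for doxorubicin with control siRNA, both called and of opposite sign. RPS15 and RPS24, whose brightest probes gave 0.18 ± 0.16 and 0.03 ± 0.17 there, had dim probes at -2.08 ± 0.21 and -1.75 ± 0.25, both called. RPL3 was called on its second probe only, at -1.38 ± 0.23 and, for TAF3 siRNA under doxorubicin, 1.21 ± 0.23.

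RPS29 had 4 probes, and the dimmest gave -0.84 ± 0.16 with control siRNA, 1.13 ± 0.16 with TAF3 siRNA and 1.97 ± 0.23 for the difference between the responses, all called, while its brightest gave -0.19 ± 0.14, -0.02 ± 0.14 and 0.18 ± 0.20. The dim probes of RPL36 (-1.34 ± 0.22) and RPL41 (1.15 ± 0.23) were called for TAF3 siRNA under doxorubicin, where their bright probes were not. Counted as probes, 25 of 111 member probes were lower and 3 higher for doxorubicin with control siRNA, against 8.12% and 8.64% of all kept probes. For TAF3 siRNA under doxorubicin 24 were higher and 2 lower, against 6.29% and 6.92%. For doxorubicin with TAF3 siRNA 2 were higher and 2 lower, against 2.09% and 2.7%. For the difference between the responses 1 was called, that dim RPS29 probe as higher, where 0.0145% of all kept probes were higher and 0.0291% lower.

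Genes with CTTTC or one of its longer forms in a window at the start of transcription can be set beside those without. Of 39 measured genes with such a motif 9 fell and 1 rose with doxorubicin in control cells (median -0.26), and of 18 without it 2 fell (median -0.32), where 8% of all features fell and 9.07% rose. For TAF3 siRNA under doxorubicin 10 of 39 and 2 of 18 were higher, with medians of 0.24 and 0.18, against 6.53% of all features. RPS7 and RPL27, whose printed windows hold none of these motifs, fell, as did RPL4, RPL13A, RPL22 and RPS14, whose windows hold one. No test was made between these classes.

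Other genes of the translation machinery were described from lists chosen with earlier results of these data known. The shares of all features to set beside their counts are 9.07% higher and 8% lower for doxorubicin with control siRNA, 2.08% and 2.58% for doxorubicin with TAF3 siRNA, and 6.53% and 7.28% for TAF3 siRNA under doxorubicin. Of 18 measured translation factors and other TOP mRNAs, 3 fell and 0 rose with doxorubicin in control cells (median -0.20), a called share of 16.7% that lies near the 17.1% of all features. They were HNRNPA1 (-1.34 ± 0.19), EIF4B (-1.17 ± 0.19), an initiation factor, and EIF3L (-0.56 ± 0.14), a subunit of eIF3. Under doxorubicin 4 of the 18 were higher with TAF3 siRNA (median 0.20), the initiation helicase EIF4A2 (1.28 ± 0.26), EIF4B (0.75 ± 0.19), EIF3L (0.69 ± 0.14) and EIF3E (0.66 ± 0.15). None of the 18 was called for doxorubicin with TAF3 siRNA.

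Of 76 measured mitochondrial ribosomal protein genes, 12 fell and 2 rose with doxorubicin in control cells (median -0.26), a called share of 18.4% that lies near the 17.1% of all features, led by MRPL24 (-1.77 ± 0.24) and MRPL12 (-1.08 ± 0.16), with MRPS6 (1.54 ± 0.26) among those that rose. With TAF3 siRNA doxorubicin lowered 1 of 76, MRPL23 (-0.80 ± 0.17), with a median of -0.07. Under doxorubicin 4 of 76 were higher with TAF3 siRNA and 1 was lower (median 0.10). The medians of the cytosolic genes in these comparisons were 0.14 and 0.23, and the difference between the lists was not tested. Of 7 dedicated chaperones of ribosomal proteins, PDCD2L (-0.96 ± 0.20), BCCIP (-0.88 ± 0.19) and LTV1 (-0.79 ± 0.20) fell in control cells, and limma called 0 for doxorubicin with TAF3 siRNA and 0 for TAF3 siRNA under doxorubicin.

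Among 17 measured genes of TOR signalling and TOP control, SESN1 (2.66 ± 0.40) and SESN2 (1.75 ± 0.26), p53-induced inhibitors of TOR complex 1, rose with doxorubicin in control cells, and MLST8 (-1.38 ± 0.30), a subunit of both TOR complexes, and EIF4EBP1 (-0.71 ± 0.19), a TOR target that holds back initiation, fell. With TAF3 siRNA SESN1 (2.13 ± 0.40) rose. Under doxorubicin TSC2 (-1.001 ± 0.25), an inhibitor of TOR, and the S6 kinase RPS6KB2 (-1.16 ± 0.30) were lower with TAF3 siRNA. Of 10 transcription regulators of ribosomal protein genes, MYC fell by 0.57 ± 0.16 and ZBTB17, its partner MIZ1, rose by 1.12 ± 0.27 with doxorubicin in control cells. Under doxorubicin with TAF3 siRNA MYC was higher (0.64 ± 0.16) and ZBTB17 lower (-1.42 ± 0.27), and GABPB1, a subunit of the factor GABP, fell with doxorubicin in TAF3 siRNA cells (-1.06 ± 0.18). Of 6 measured paralogues and ribosome components outside the rule, the p53 target RPS27L (1.93 ± 0.38) and RPL10L (1.30 ± 0.36) rose and RPL26L1 (-0.78 ± 0.17) fell with doxorubicin in control cells.

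Leaving out single arrays ended many of these calls. Without the second replicate of control siRNA with doxorubicin, 0 of 67 members were called in the comparison of doxorubicin with control siRNA, and the calls over all features went from 2791 to 249. For TAF3 siRNA under doxorubicin, 0 members were called without the second or the fourth replicate of control siRNA with doxorubicin or without the fourth replicate of TAF3 siRNA with doxorubicin, and the calls over all features went from 2257 to 2, 101 and 156. The median of the members kept its sign in every such fit, from -0.41 to -0.19 for doxorubicin with control siRNA and from 0.14 to 0.32 for TAF3 siRNA under doxorubicin. The call of RPS7 for doxorubicin with TAF3 siRNA held in 3 of 8 such fits, with limma adjusted p between 0.0502 and 0.146 in the others. Other arrays gave more calls when left out. For the difference between the responses 3 members were called without the first replicate of untreated TAF3 siRNA and 5 without the second replicate of TAF3 siRNA with doxorubicin, RPL13A among them both times, while the calls over all features went from 6 to 250 and 321.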

How the data were processed

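The deposited signals are linear probe intensities that the authors exported from BeadStudio, which the submitters' processing notes name without a version, and nothing more of their processing is stated in the labels. The median signal over 48803 probes is 73.9 on each of the 8 arrays. Detection values stand in another deposited table, under a header of p-values. They grow with brightness and were read as 1 minus a p-value. Its columns name no sample, so it served only to count, per probe, the arrays with detection, and its 8 signal columns were left out. Background thresholds per array were read from the labelled signals, between probes detected on 0 and on 8 arrays, whose bounds lay at most 0.194 units apart.

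Intensities were background corrected with normexp (offset 50), quantile normalized and put on the log2 scale. The 20628 probes kept had a detection p under 0.05 on 2 or more arrays. Names came from the platform annotation, in which 28098 probes had 1 symbol, 13 had several and 20692 were not listed. The brightest kept probe stood for a gene and a probe with no single symbol for itself, which gave 16348 features, 12250 of them named genes. A model of 4 group means over the 8 arrays was fitted in limma 3.58.1 (R 4.3.3) with lmFit and moderated by eBayes (residual degrees of freedom 4, prior 4.98), and p-values were adjusted by Benjamini-Hochberg over all features within each of 5 comparisons. The standard error pools the spread of the 4 groups. The number of arrays, 2 per group, limits the precision.

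The members and the gene lists were chosen with earlier results of these data known. Genes were named by rule: members called in a comparison, the 3 highest and 3 lowest changes, members with known roles, members whose probes differ in sign where one is called, and up to 4 genes of each other list with the smallest p. The genes with opposite responses to doxorubicin were named after their values were seen. In simulated data with 16348 features the fit recovered 86 of 100 features changed by 1 log2 unit for doxorubicin with control siRNA, 81 for TAF3 siRNA with doxorubicin and 25 for the difference between responses. For changes of 2 units it recovered 100, 100 and 95, with 12, 19 and 4 false calls. In these data 100 features of each size were changed in 1 group. Their noise was independent between features and arrays, with no effect shared by an array and no normalization step. Recovery with such effects was not tested.

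Replicate numbers in the sample titles are 1 and 3 for untreated and 2 and 4 for doxorubicin arrays. No number occurs under both treatments, so any difference between numbers cannot be told apart from the effect of doxorubicin. Deviations of same-numbered arrays correlated at -0.0256 (untreated) and 0.212 (doxorubicin) across features, and at -0.0118 and 0.439 over the 67 members. The labels do not say that a number marks a shared culture or day. The untreated arrays showed no such relation, while the doxorubicin arrays showed a positive one. The numbers were not taken to pair the arrays in the fit above, and whether they do was not settled. Alternatives were the background correction, the normalization, the filter, the probe that stands for a gene, the prior of the variance, the arrays in the fit, the replicate number as a block, and leaving out each array.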

Additional observations from a re-analysis of the deposited data

Results flagged for a closer look

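The share of the summed signal held by ribosomal protein probes moved one way with doxorubicin in control siRNA cells and the other way in TAF3 siRNA cells, with a difference between the responses of 1.83 percentage points. Both control siRNA doxorubicin arrays lay below both untreated ones, and both TAF3 siRNA doxorubicin arrays lay above both untreated ones. The median log2 deviation of the 67 measured genes behaved alike, with a difference of 0.372 between the responses. With TAF3 siRNA, however, its arrays were barely apart, at -0.0048 and -0.0226 untreated and 0.0053 and 0.149 with doxorubicin. The spread of this median within groups was 0.0906. The difference between the responses was not tested for either summary. Gene by gene it was tested in limma, where 0 of 67 members passed, and 24 of 67 members and 2422 of 16348 features had an unadjusted p under 0.05.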

How the results depend on the processing

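No summary of the members changed its direction under any alternative. Nor did a gene that was called, extreme or of known role in a comparison change direction while called. RPL13 was not among these genes for doxorubicin with control siRNA. It was lower there on its brightest probe (-0.65, not called). With every kept probe as a feature its other probe was called higher (1.19). RPS15, RPS24 and RPL9, also not among these genes there, likewise had a dimmer probe called in the direction opposite to their brightest probe. Centring each array on its median in place of quantile normalization moved the members' median to -0.484 for doxorubicin with control siRNA, 0.321 for TAF3 siRNA with doxorubicin and 0.589 for the difference between the responses. On the deposited signals without further normalization the median of all features for that difference went from 0.0228 to -0.099, a move of -0.122, and the members' median of 0.42 lay 0.519 above it. In the other comparisons the median of all features moved by less than 0.1 under each scaling. On these signals 9 members were called for TAF3 siRNA with doxorubicin (8 higher, 1 lower). For the difference between the responses 1 member, RPL13A, was called without the detection filter and 1, again RPL13A, with a trended robust prior. A fit to the 2 groups alone called 0 members for doxorubicin with TAF3 siRNA. On the deposited signals without further normalization, higher calls made up 1498 of 2333 calls over all features (against 1483 of 2791) for doxorubicin with control siRNA, 203 of 671 (against 340 of 761) for doxorubicin with TAF3 siRNA, and 638 of 1635 (against 1067 of 2257) for TAF3 siRNA with doxorubicin. The cause of these shifts was not tested. Of members called, 13 of 14 for doxorubicin with control siRNA and 7 of 15 for TAF3 siRNA with doxorubicin stayed called under every alternative counted. The fit to the 2 groups alone was counted, and fits without single arrays or with every kept probe as a feature were not. With the replicate block 14 members were called for TAF3 siRNA with doxorubicin, 13 of them among the 15, and 0 for TAF3 siRNA without doxorubicin and for the difference. The block gave no estimate for doxorubicin with either siRNA, because each replicate number belongs to a single treatment.

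Leaving out 1 array at a time gave 0 to 16 called members for doxorubicin with control siRNA (6 and 9 without an untreated control array, 7 without the fourth replicate with the drug), 0 to 4 for doxorubicin with TAF3 siRNA, 0 to 2 for TAF3 siRNA without doxorubicin (RPL28 and RPL29, without the third replicate), 0 to 15 for TAF3 siRNA with doxorubicin (8 without either untreated control array) and 0 to 5 for the difference. Medians ran from -0.412 to -0.188, from 0.0557 to 0.199, from -0.173 to -0.0939, from 0.138 to 0.321 and from 0.331 to 0.556 in that order. Shares ran from -1.49 to -0.988, from 0.429 to 0.752, from -0.921 to -0.619, from 0.808 to 1.31 and from 1.58 to 2.08 percentage points. A group left with 1 array is assumed to vary like the others. Over all features such fits called 249 to 3427 for doxorubicin with control siRNA, 36 to 1638 for doxorubicin with TAF3 siRNA, 0 to 310 for TAF3 siRNA alone, 2 to 3032 for TAF3 siRNA with doxorubicin and 0 to 321 for the difference. Depth has no count here, and RPL36A under doxorubicin lies near background.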
